A study of Mus musculus with 16 samples.

Results

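The 10 Kruppel-like factor genes Klf2, Klf3, Klf4, Klf6, Klf7, Klf9, Klf10, Klf11, Klf13 and Klf16 were followed in bone marrow-derived mast cells (BMMCs). They were taken from the count tables by matching each Ensembl identifier to its symbol, 10 of 39179 genes in all, and all 10 were among the 13305 genes that passed the filter on low counts. BMMCs came from male C57BL/6 mice that were 8 to 10 weeks old and were grown for 4 weeks with stem cell factor and IL3. The cells were either wild-type (PEP+/+) or lacked PEP, the tyrosine phosphatase that Ptpn22 encodes (PEP-/-). Every sample was sensitized with immunoglobulin E (IgE) for 3 h, at 0.05 µg/ml by the labels though the study's methods give a higher dose, so the reference group had IgE alone and there was no resting group. The other groups also received the antigen dinitrophenol (DNP, 200 ng/ml, 1 h), the glucocorticoid dexamethasone (DEX, 100 nM, 8 h), or both. Each of the 8 conditions had 2 samples, 1 from a numbered and 1 from a lettered set, 16 samples in all. The study calls them biological replicates, but the labels do not say whether they came from separate mice, so the p-values measure the spread between these samples, which may be partly technical. BMMCs are mast cells grown from marrow in culture, not mast cells taken from tissue.

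Kruppel-like factors are transcription factors that bind GC-rich and CACCC-type DNA through zinc fingers at their carboxyl end. Their amino-terminal parts differ and give the family its functional groups. Klf2, Klf4, Klf6 and Klf7 belong to a group known mainly for activation with acetyltransferases, Klf3 represses with the corepressor CtBP, and Klf9, Klf10, Klf11, Klf13 and Klf16 carry a short motif that recruits SIN3 corepressors. In haematopoietic cells Klf2 is known for quiescence and trafficking of lymphocytes and Klf4 for monocyte differentiation, while Klf9 is a known glucocorticoid-induced gene in several other tissues. Cross-linking of receptor-bound IgE by antigen induces many immediate early genes in mast cells, and DEX acts through the glucocorticoid receptor.

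The Kruppel-like factor genes lie on 10 chromosomes of GRCm38, and all 10 are annotated as protein coding. Klf2 (ENSMUSG00000055148) is at chr8:72319033-72321656, Klf4 (ENSMUSG00000003032) at chr4:55527143-55532466, Klf6 (ENSMUSG00000000078) at chr13:5861482-5870394, Klf7 (ENSMUSG00000025959) at chr1:64029447-64122282 and Klf3 (ENSMUSG00000029178) at chr5:64803388-64832901. Of the SIN3-binding group, Klf9 (ENSMUSG00000033863) is at chr19:23141226-23168134, Klf10 (ENSMUSG00000037465) at chr15:38291463-38300706, Klf11 (ENSMUSG00000020653) at chr12:24651274-24662789, Klf13 (ENSMUSG00000052040) at chr7:63886351-63938915 and Klf16 (ENSMUSG00000035397) at chr10:80567124-80577321. Exons of Klf3 overlap those of Gm20033 on the other strand (9 to 123 reads), and exons of Klf7 overlap those of Gm26649 (0 reads) and Gm13748 (0 to 3 reads). The strand setting of the counting is not given in the sources used here, so reads of these pairs may not have been told apart.

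Promoter sequence is shown for 3 genes that rose with DEX in sensitized cells, Klf2, Klf9 and Klf13. RefSeq promoter windows (GRCm38.p6, 250 bases before to 50 after the start) were found for 8 of the 10 genes, not for Klf10 and Klf16. The stretches are printed 5′ to 3′ on the gene's strand and end before the first annotated exon. Capitals mark matches, on either strand, to the cAMP response element core TGACG, the GC box GGGGCGGGG or the MEF2 motif.
Klf2, chr8:72318812-72319032 (+): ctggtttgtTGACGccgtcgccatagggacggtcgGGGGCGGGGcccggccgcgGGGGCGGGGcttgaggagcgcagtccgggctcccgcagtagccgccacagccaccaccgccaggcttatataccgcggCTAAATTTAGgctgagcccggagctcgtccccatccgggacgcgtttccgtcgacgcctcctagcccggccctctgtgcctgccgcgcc
Klf9, chr19:23140976-23141225 (+): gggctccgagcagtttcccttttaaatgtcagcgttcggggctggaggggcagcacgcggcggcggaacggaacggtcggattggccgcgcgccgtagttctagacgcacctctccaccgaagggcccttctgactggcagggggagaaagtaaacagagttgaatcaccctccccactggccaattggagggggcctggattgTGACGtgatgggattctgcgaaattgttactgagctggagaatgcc
Klf13, chr7:63938916-63939165 (-): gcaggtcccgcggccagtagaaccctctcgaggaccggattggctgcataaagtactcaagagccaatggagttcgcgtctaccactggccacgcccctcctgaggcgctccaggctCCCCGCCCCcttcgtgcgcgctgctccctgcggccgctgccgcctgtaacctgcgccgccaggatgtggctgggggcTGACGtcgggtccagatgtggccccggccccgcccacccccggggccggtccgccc

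All 3 stretches held TGACG, which began 241 bases before the RefSeq start of Klf2, 46 before that of Klf9 and 56 before that of Klf13. It was also found in the windows of Klf3 and Klf4, so 5 of 8 member windows had it against 20.8% of all 32851 promoter windows. The GC box was in 5 of the 8 (Klf2, Klf3, Klf4, Klf11 and Klf13) against 11.4% of all windows. The CACCC box CCCCACCC was in 2 of the 8 (Klf3 and Klf7) against 9.99%. The MEF2 motif was matched in the Klf2 window alone, 118 bases before the start, against 3.19% of all windows; MEF2 is the known relay from the kinase ERK5 to Klf2. The glucocorticoid receptor element GNACANNNTGTNC (0.475% of all windows) and the CArG box (1.63%) had no match in these 8 windows. These matches describe letters in a short window and do not show binding.

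Depth, as reads assigned to genes, ran from 8612531 to 22143526. The labelled cell type and treatments were checked first. CPM is a gene's reads scaled to the library's total after that total was multiplied by the library's factor from edgeR's TMM scaling. These factors were 1.14 to 1.18 with IgE, 1.06 to 1.08 with IgE DEX, 0.885 to 0.952 with IgE DNP and 0.821 to 0.937 with both. Overlap between groups was judged on this scale. The 8 mast cell markers summed to between 63067 and 103614 CPM. The T cell, B cell and stroma lists summed to at most 0.130, 0.605 and 0.113 CPM. The neutrophil list reached 2.35 CPM and the erythroid list 17.7 CPM. Of the eosinophil list Epx had 0 reads, while Siglecf (2 to 103 reads) rose with DNP by 2.18, and the monocyte and basophil lists are given beside the results they moved with. Ptpn22 had at most 55 reads in any PEP-/- sample and at least 130 in any PEP+/+ sample. The DEX-induced gene Fkbp5 rose with DEX by 3.26 on the log2 scale in sensitized cells, and the antigen-induced gene Egr1 rose by 3.59 with DNP. Samples of one set deviated from their condition means together. The correlation was above 0.1 in 28 of 28 pairs of conditions (median 0.72), so each comparison is also given with the set as a replicate block. Reads outside genes made up 6.34% to 10.5% of uniquely placed reads in the numbered and 11.8% to 15.996% in the lettered samples.

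Scaled to gene length, Klf6 had the highest level in 3 of the 4 treatments. Klf6, a widely expressed factor known from liver injury, had a mean of 32.3 ± 13.4 CPM per kb with IgE alone, 53.0 ± 15.1 with DNP, 46.0 ± 19.4 with DEX and 48.1 ± 18.2 with both (SD, n = 4). Klf13 and Klf10 followed with 11.7 ± 3.93 and 10.1 ± 3.07 CPM per kb with IgE alone, and Klf16 came next with 8.47 ± 1.72. Klf13 was slightly above Klf10 in each IgE sample (14.7 against 13.4 and 7.46 against 7.20 in PEP+/+, 15.4 against 12.1 and 9.30 against 7.88 in PEP-/-). With DNP and DEX together Klf10 had the highest mean, 55.1 ± 8.47 CPM per kb, against 45.0 ± 16.01 for Klf13. In PEP-/- replicate 1, however, Klf6 (73.9) and Klf13 (68.0) lay above Klf10 (67.3). Klf3, Klf9 and Klf2 lay between 1.87 and 3.06 CPM per kb with IgE alone. Klf7 (0.829 ± 0.334), Klf11 (0.616 ± 0.291) and Klf4 (0.00747 ± 0.0149) were lowest, and Klf4 had no read in 4 of the 16 samples. The plot of member levels by sample shows each value on the CPM scale.

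**Figure D1:**
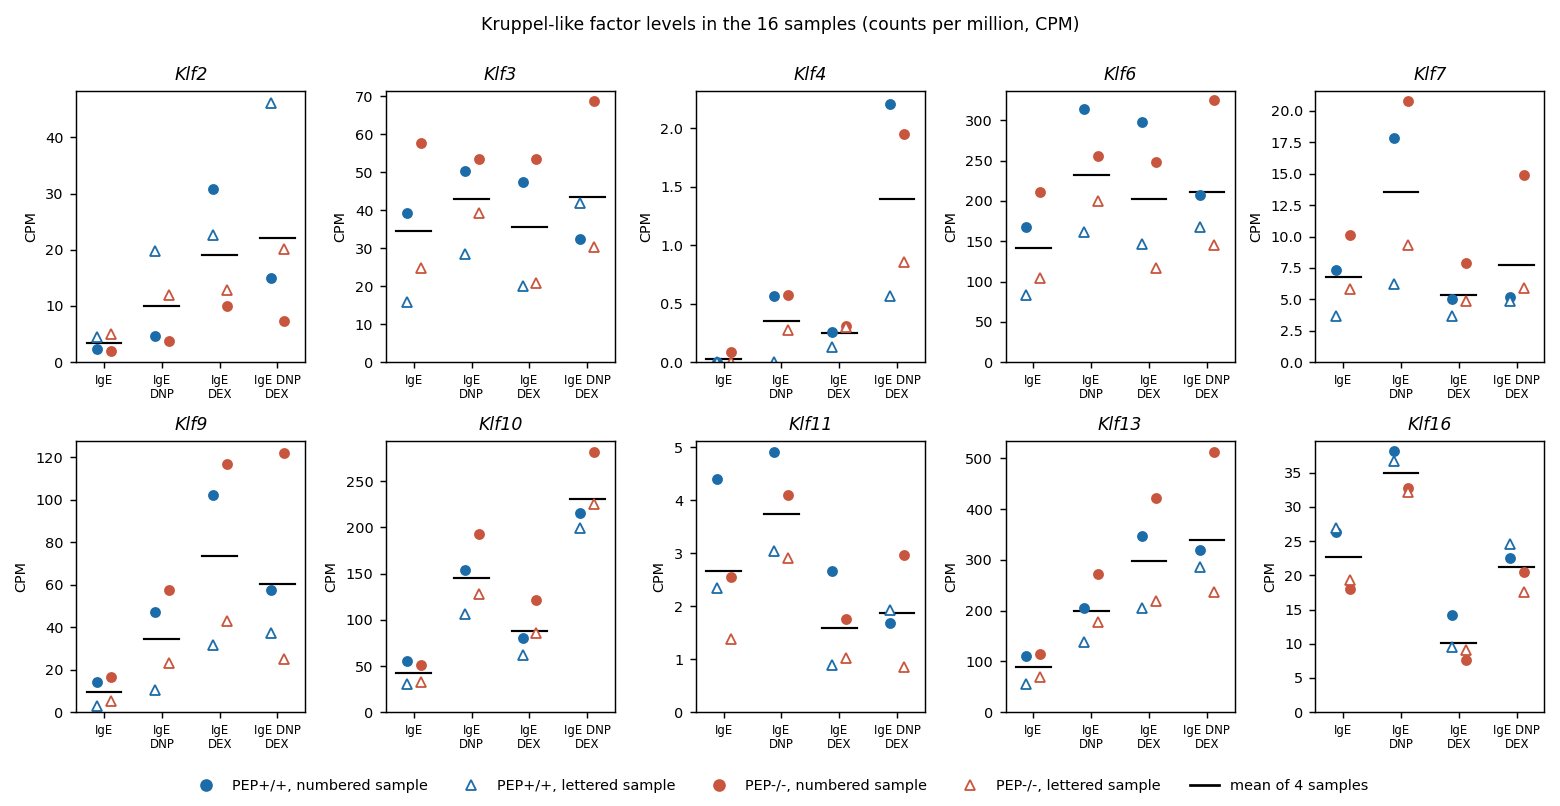
CPM of each Kruppel-like factor (vertical axis, linear from 0) in the 4 treatments; blue marks PEP+/+ and red PEP-/-, filled circles the numbered and open triangles the lettered samples, and black lines the mean of 4 samples. For Klf10 and Klf16 all points with DNP lay above those without it, both without and under DEX, while filled circles lay above open triangles in 8 of 8 conditions for Klf6, Klf7, Klf9, Klf10 and Klf13.

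The first comparison asked how antigen changed the family without DEX. Klf10, Klf13 and Klf16 rose with DNP, 3 of 10 members, where 16.7% of all tested genes changed (edgeR quasi-likelihood test, Benjamini-Hochberg adjusted over 13305 genes, averaged over genotypes). The median log2 fold change was 1.09 over the 10 members and -0.00065 over all tested genes. Klf10, the TGF-β-inducible early gene, had 55.9 and 30.1 CPM in the PEP+/+ samples with IgE (replicates 1 and 2) and 154 and 106 CPM with IgE DNP. In PEP-/- BMMCs it had 50.7 and 32.9 CPM with IgE and 193 and 128 CPM with IgE DNP. All 4 samples with DNP thus lay above all 4 without it, and Klf10 rose by 1.77 ± 0.25 (log2, SE; adjusted p = 0.000566).

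Klf13, which is known to drive Ccl5 in T lymphocytes, had 111 and 56.2 CPM in PEP+/+ and 116 and 70.0 CPM in PEP-/- BMMCs with IgE. With IgE DNP it had 206 and 138 CPM in PEP+/+ and 272 and 178 CPM in PEP-/- BMMCs. The 2 groups did not overlap, and Klf13 rose by 1.16 ± 0.35 (adjusted p = 0.0402). That call was lost when any 1 of 8 libraries was left out, namely both PEP-/- IgE, both PEP-/- IgE DNP and both PEP+/+ IgE DNP DEX samples, PEP+/+ IgE replicate 2 and PEP+/+ IgE DNP replicate 1, with fold changes between 0.95 and 1.37 and adjusted p between 0.0523 and 0.153. Klf16, a SIN3-binding factor first described at dopamine receptor genes, had 26.3 and 26.9 CPM in PEP+/+ and 18.0 and 19.3 CPM in PEP-/- BMMCs with IgE. With IgE DNP it had 38.1 and 36.7 CPM in PEP+/+ and 32.7 and 32.2 CPM in PEP-/- BMMCs, again without overlap. It rose by 0.64 ± 0.14 (adjusted p = 0.0101). Without a filter on low counts its adjusted p was 0.0570.

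With the replicate block 8 of 10 members rose with DNP, where 37.9% of all tested genes changed. Klf2, Klf4, Klf6, Klf7 and Klf9 were the additional calls, with blocked log2 fold changes of 1.41 ± 0.36, 4.15 ± 1.01, 0.78 ± 0.14, 0.97 ± 0.19 and 1.84 ± 0.22. Klf9 differed strongly between the sets. It had 14.0 and 16.4 CPM in the numbered but 3.12 and 5.45 CPM in the lettered samples with IgE, and 47.1 and 57.8 against 10.7 and 23.3 CPM with IgE DNP. Its 4 differences within 1 genotype and set lay between 1.63 and 2.00 on the scale of log2 (CPM + 0.5). Klf2 had 4.73 and 3.69 CPM in the numbered and 19.7 and 11.9 CPM in the lettered samples with IgE DNP (PEP+/+ first), the opposite order. Klf7 had 17.9 and 20.8 against 6.19 and 9.30 CPM with IgE DNP, from 7.35 and 10.1 against 3.64 and 5.86 CPM with IgE. Klf6 had 168 and 212 CPM in the numbered and 83.3 and 104 CPM in the lettered samples with IgE, and 314 and 255 against 162 and 200.05 CPM with IgE DNP. The groups with and without DNP overlapped for all 4 of these genes. Differences within genotype and set were all positive for 8 members (Klf2, Klf6, Klf7, Klf9, Klf10, Klf11, Klf13 and Klf16), where 59.8% of all tested genes had 4 differences of the same sign.

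Klf4 was close to its detection limit. It had 1 read over the 4 samples with IgE and 18 over the 4 with IgE DNP, 0 of them in PEP+/+ replicate 2. The ratio of pooled CPM was 20.1, with a 95% interval of 3.17 to 836 that covers counting error only. In the edgeR fit without the block Klf4 did not pass (4.18 ± 1.33, adjusted p = 0.0567). Without that PEP+/+ replicate 2 sample, the only IgE DNP sample with no Klf4 read, the log2 fold change was 4.65. Klf3 and Klf11 passed neither test, with log2 fold changes of 0.34 ± 0.45 and 0.54 ± 0.46. Klf3 is a CtBP-dependent repressor and Klf11 a close relative of Klf10.

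Taken one genotype at a time, Klf10 rose with DNP in PEP+/+ BMMCs (1.60 ± 0.35, 1 of 10 members, against 5.90% of all tested genes). In PEP-/- BMMCs Klf10 (1.94 ± 0.36) and Klf16 (0.80 ± 0.20) rose, 2 of 10 members against 7.22% of all tested genes. In the blocked fit 6 members rose in PEP+/+ BMMCs (Klf2, Klf6, Klf7, Klf9, Klf10 and Klf13, against 21.1% of all tested genes) and 7 in PEP-/- BMMCs (Klf4, Klf6, Klf7, Klf9, Klf10, Klf13 and Klf16, against 26.2%). The difference of the response between genotypes passed for no member and for no other gene (0% of all tested genes; 0 members and 30 genes at an unadjusted p under 0.05, and 0 members with DESeq2). The fitted difference was 0.34 ± 0.49 for Klf10 and 0.30 ± 0.29 for Klf16.

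**Figure D2:**
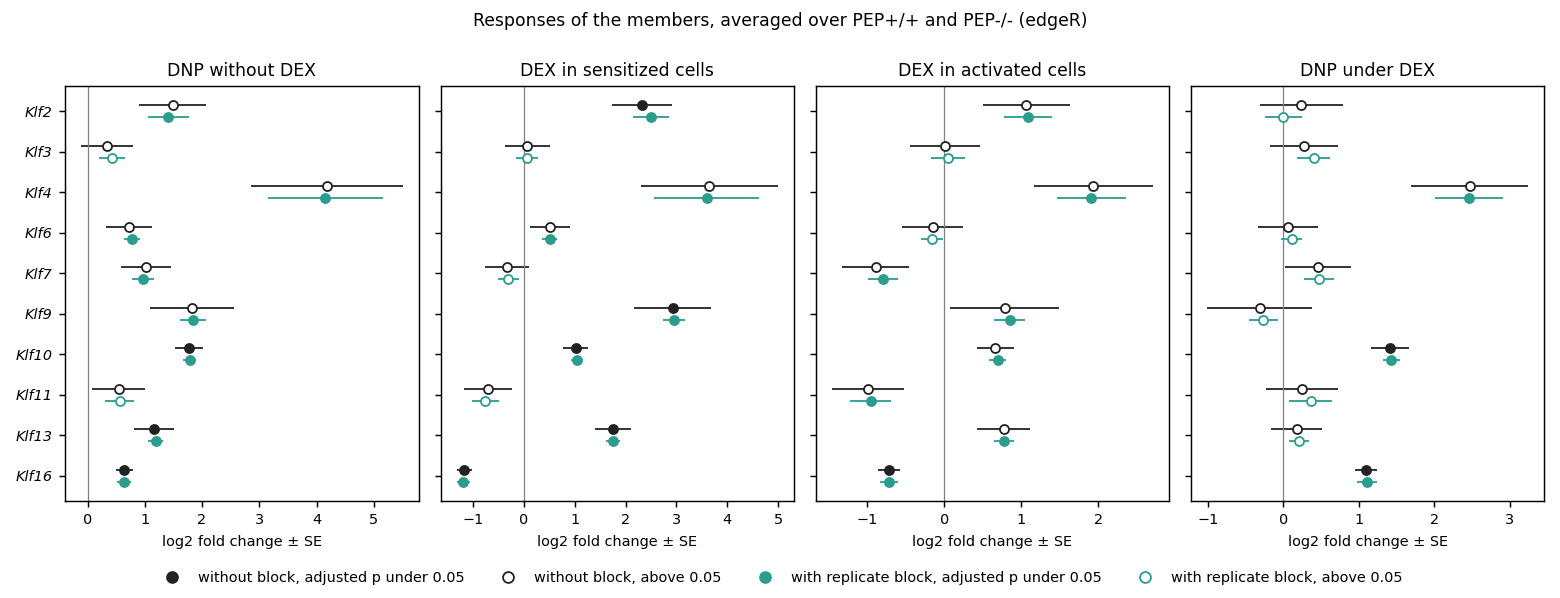
Log2 fold change ± SE (horizontal axes) of each member in 4 comparisons, averaged over genotypes, without (black) and with (green) the replicate block; filled points had an adjusted p under 0.05. For Klf9 with DNP the estimate was 1.83 without and 1.84 with the block, and its SE was 0.73 and 0.22.

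DEX was then compared in sensitized cells without antigen. Klf2, Klf9, Klf10 and Klf13 rose and Klf16 fell, 5 of 10 members, where 9.37% of all tested genes changed. The median was 0.77 over members and 0.0011 over all tested genes. Klf9, the known glucocorticoid-induced member, reached 102 and 31.5 CPM in PEP+/+ and 117 and 42.9 CPM in PEP-/- BMMCs (replicates 1 and 2) from the IgE levels given above. Every sample with DEX lay above every sample without it, and Klf9 rose by 2.92 ± 0.76 (adjusted p = 0.0327).

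Klf2, the lymphocyte quiescence factor, had 2.35 and 4.42 CPM in PEP+/+ and 2.00 and 5.04 CPM in PEP-/- BMMCs with IgE. With IgE DEX it had 30.9 and 22.6 CPM in PEP+/+ and 9.96 and 12.8 CPM in PEP-/- BMMCs. The groups did not overlap, and Klf2 rose by 2.32 ± 0.59 (adjusted p = 0.0306). Klf13 had 347 and 206 CPM in PEP+/+ and 422 and 219 CPM in PEP-/- BMMCs with IgE DEX, above all 4 IgE samples, and rose by 1.76 ± 0.35 (adjusted p = 0.00818). Klf10 had 80.3 and 62.3 CPM in PEP+/+ and 121 and 85.9 CPM in PEP-/- BMMCs with IgE DEX, above all 4 IgE samples, and rose by 1.02 ± 0.25 (adjusted p = 0.0231).

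Klf16 moved the other way. It had 14.1 and 9.55 CPM in PEP+/+ and 7.57 and 9.05 CPM in PEP-/- BMMCs with IgE DEX, below all 4 IgE samples, and fell by 1.17 on the log2 scale (SE 0.15, adjusted p = 0.00042). The summed level of 3 basophil markers (Cd200r3, Mcpt8 and Prss34) was likewise higher with DNP and lower with DEX. Only 1 of the 3 passed with DNP, and only 1 of the 3 with DEX in sensitized cells, so the sum does not describe the list as a whole. The sum was 539 to 623 CPM with IgE, 749.9 to 882 with IgE DNP, 228 to 392 with IgE DEX and 431 to 479 with both. Most of it came from Cd200r3 (198 to 837 CPM), which fell by 1.12 with DEX in sensitized cells, while Mcpt8 (-0.16 ± 0.65) and Prss34 (0.08 ± 0.57) did not pass there; these had at least 120 and 118 reads in each sample. The part of these markers in the Klf16 result was not tested, and in bulk RNA fewer cells of a type and less RNA per cell cannot be told apart.

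The calls in this comparison rested on few samples. Klf2 was lost when any 1 of the 8 IgE and IgE DEX libraries was left out (2.08 to 2.74, adjusted p 0.0538 to 0.123). Klf9 was lost without replicate 1 of PEP+/+ IgE DEX, PEP+/+ IgE DNP DEX, PEP-/- IgE or PEP-/- IgE DEX, or without replicate 2 of PEP+/+ IgE or PEP-/- IgE (2.38 to 3.42, adjusted p 0.0501 to 0.138). Klf10 was lost without replicate 1 of either IgE DEX group or replicate 2 of either IgE group (0.83 to 0.92, adjusted p 0.0825 to 0.104), and its adjusted p was 0.0569 when only the conditions compared were fitted. Klf13 and Klf16 kept their calls in all 16 such fits. With the replicate block all 5 held and Klf4 and Klf6 rose too, by 3.59 ± 1.04 and 0.51 ± 0.14, which made 7 of 10 members where 26.7% of all tested genes changed. Klf4 had 16 reads over the 4 IgE DEX samples against 1 with IgE, a ratio of pooled CPM of 13.0 with a 95% counting interval of 2.02 to 546.

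Within genotype and set, Klf2, Klf4, Klf6, Klf9, Klf10 and Klf13 were higher with DEX in all 4 differences and Klf11 and Klf16 were lower in all 4, 8 of 10 members, where 50.1% of all tested genes had 4 differences of the same sign. For Klf9 these differences ran from 2.80 to 3.14 and for Klf13 from 1.63 to 1.87. The smallest for Klf6 was 0.16 and the smallest decrease for Klf11 was -0.32. Klf11 had an average log2 fold change of -0.70 ± 0.47 (blocked adjusted p = 0.0540). Klf3 had 0.07 ± 0.45 and Klf7, known from neuronal development, -0.33 ± 0.43.

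Klf16 passed in each genotype alone, with a log2 fold change of -1.17 ± 0.21 in both PEP+/+ BMMCs (1 of 10 members, against 3.18% of all tested genes) and PEP-/- BMMCs (1 of 10, against 3.34%). Klf2 had 2.98 ± 0.86 in PEP+/+ and 1.66 ± 0.82 in PEP-/- BMMCs, a difference of -1.33 ± 1.15 that did not pass. The blocked fit had Klf2, Klf9, Klf10 and Klf13 higher and Klf16 lower in both genotypes, and Klf6 also higher in PEP+/+ BMMCs, 6 of 10 members against 15.6% of all tested genes in PEP+/+ and 5 of 10 against 14.7% in PEP-/- BMMCs. No member and no other gene passed for the difference of the DEX response between genotypes (0% of all tested genes; 0 members and 40 genes at an unadjusted p under 0.05, 0 members with DESeq2).

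In activated cells, which had IgE and DNP in both arms, Klf16 fell with DEX, 1 of 10 members, where 10.7% of all tested genes changed. From the IgE DNP levels given above it went to 22.5 and 24.6 CPM in PEP+/+ and 20.4 and 17.5 CPM in PEP-/- BMMCs with IgE DNP DEX. The groups did not overlap, and Klf16 fell by 0.72 on the log2 scale (SE 0.14, adjusted p = 0.00874), and kept that call in all 16 fits that left out a sample. Over both genotypes Klf16 had 21.3 ± 3.03 CPM with IgE DNP DEX and 22.6 ± 4.605 with IgE (SD, n = 4), spreads that include the genotype difference. In PEP+/+ BMMCs both IgE DNP DEX samples lay below both IgE samples (26.3 and 26.9 CPM). In PEP-/- BMMCs 1 lay above and 1 below both IgE samples (18.0 and 19.3 CPM). IgE DNP DEX was not tested against IgE.

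With the replicate block 5 members rose and 3 fell with DEX in activated cells, 8 of 10 where 33.3% of all tested genes changed. Klf10 was the clearest of those that rose. It had 216 and 199.6 CPM in PEP+/+ and 281 and 225 CPM in PEP-/- BMMCs with IgE DNP DEX, above all 4 IgE DNP samples, and its log2 fold change was 0.69 ± 0.11 with the block (adjusted p = 0.000244) and 0.66 ± 0.24 without it (adjusted p = 0.115). Klf2, Klf4, Klf9 and Klf13 rose by 1.09 ± 0.31, 1.91 ± 0.45, 0.85 ± 0.20 and 0.77 ± 0.13 in the blocked fit. Klf7 fell by 0.80 (SE 0.19) and Klf11 fell by 0.95 (SE 0.27) in that fit. Klf4 had at most 0.574 CPM outside IgE DNP DEX and passed the filter on low counts only through that group. Its place in this count is therefore not independent of the filter. Each of these 8 members had 4 same-set differences of 1 sign, where 44.3% of all tested genes did.

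The size of the DEX response differed between samples for Klf9 and Klf7. With IgE DNP DEX Klf9 had 57.5 and 37.1 CPM in PEP+/+ and 122 and 25.0 CPM in PEP-/- BMMCs (replicates 1 and 2). The Klf9 differences were 0.29 and 1.75 in PEP+/+ and 1.07 and 0.10 in PEP-/- BMMCs (replicates 1 and 2). The Klf7 differences were -1.69 and -0.32 in PEP+/+ and -0.46 and -0.61 in PEP-/- BMMCs. No member passed in PEP+/+ BMMCs (3.03% of all tested genes; 1 member at an unadjusted p under 0.05) or in PEP-/- BMMCs alone (3.28%; 1 member) by edgeR without the block, where the blocked fit called 7 (18.9% of all tested genes) and 3 (18.1%). No gene passed for the difference between genotypes (0% of all tested genes; 95 genes but 0 members at an unadjusted p under 0.05, 0 members with DESeq2).

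Antigen under DEX was the remaining treatment comparison. Klf10 and Klf16 rose with DNP in DEX-treated cells, 2 of 10 members, where 12.6% of all tested genes changed. Klf10 went from 62.3 to 121 CPM with IgE DEX to 199.6 to 281 CPM with IgE DNP DEX and rose by 1.42 ± 0.25 (adjusted p = 0.00335). Klf16 went from 7.57 to 14.1 CPM to 17.5 to 24.6 CPM and rose by 1.10 ± 0.15 (adjusted p = 0.000655). Neither gene's groups overlapped, and both calls held in all 16 fits that left out a sample.

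The replicate block added Klf4 to these (2.47 ± 0.45, adjusted p = 0.000857), 3 of 10 members where 37.6% of all tested genes changed. Klf4 had 17 and 9 reads in PEP+/+ and 25 and 9 reads in PEP-/- BMMCs with IgE DNP DEX, at most 2.21 CPM, against 3 to 6 reads per sample with IgE DEX. Klf4 passed the filter on low counts only through the IgE DNP DEX samples, so its rise into that group is not independent of the filter. It also passed without the block when either PEP+/+ IgE DNP sample was left out (2.49, adjusted p = 0.0403 without replicate 1 and 0.0396 without replicate 2). Klf4, Klf7, Klf10 and Klf16 were higher with DNP in all 4 same-set differences, 4 of 10 members, where 51.4% of all tested genes had 4 of the same sign. Klf2 split by set, with -1.02 and -0.41 in the numbered and 1.01 and 0.63 in the lettered samples (PEP+/+ first). By genotype, Klf10 (1.54 ± 0.35) and Klf16 (1.00 ± 0.21) passed in PEP+/+ BMMCs, 2 of 10 members against 3.84% of all tested genes, and Klf16 (1.19 ± 0.21) passed in PEP-/- BMMCs, 1 of 10 against 3.98%. Klf10 had 1.29 ± 0.35 there. In the blocked fit Klf4, Klf10 and Klf16 rose in each genotype, 3 of 10 members against 22.3% of all tested genes in PEP+/+ and 19.7% in PEP-/- BMMCs.

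Whether DEX changed the antigen response was tested as an interaction. No member passed without the block, where 0.331% of all tested genes did (1 member, Klf16, at an unadjusted p under 0.05; 0 members with DESeq2). With the replicate block Klf9 and Klf13 passed, 2 of 10 members where 1.57% of all tested genes did. The DNP response of Klf9 was 1.84 ± 0.22 without DEX and -0.26 ± 0.20 under DEX in the blocked fit, a difference of -2.10 ± 0.30 (adjusted p = 0.00149; 1.00 without the block). Within genotype and set the Klf9 response dropped in 4 of 4 cases, by 1.40 to 2.77. The DNP response of Klf13 was 1.19 ± 0.13 without DEX and 0.21 ± 0.13 under DEX, a difference of -0.98 ± 0.18 (adjusted p = 0.0120; 1.00 without the block), and the response dropped in 4 of 4 cases, by 0.82 to 1.23. In all, 7 members moved 1 way in 4 of 4 cases (Klf2, Klf7, Klf9, Klf10 and Klf13 lower under DEX, Klf4 and Klf16 higher), where 26.8% of all tested genes did. These cases used log2 (CPM + 0.5), and Klf4 had at most 0.574 CPM without DEX. For Klf4 the fitted interaction had the other sign, -1.71 ± 1.39 without and -1.69 ± 1.09 with the block. Klf2 dropped by 0.53 to 1.90, with an interaction of -1.41 ± 0.47 that did not pass (blocked adjusted p = 0.203).

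Klf10 and Klf16 kept a DNP response in both arms. The Klf10 interaction was -0.35 ± 0.16 with the block, with a response smaller by 0.04 to 0.71 under DEX, and that of Klf16 was 0.47 ± 0.18, with a response larger by 0.13 to 0.88; neither passed (adjusted p = 0.411 and 0.301). The IgE DEX samples are shared by the DEX comparison and by the comparison of DNP under DEX, and the IgE samples by the DEX and DNP comparisons, so these values are not independent of each other.

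**Figure D3:**
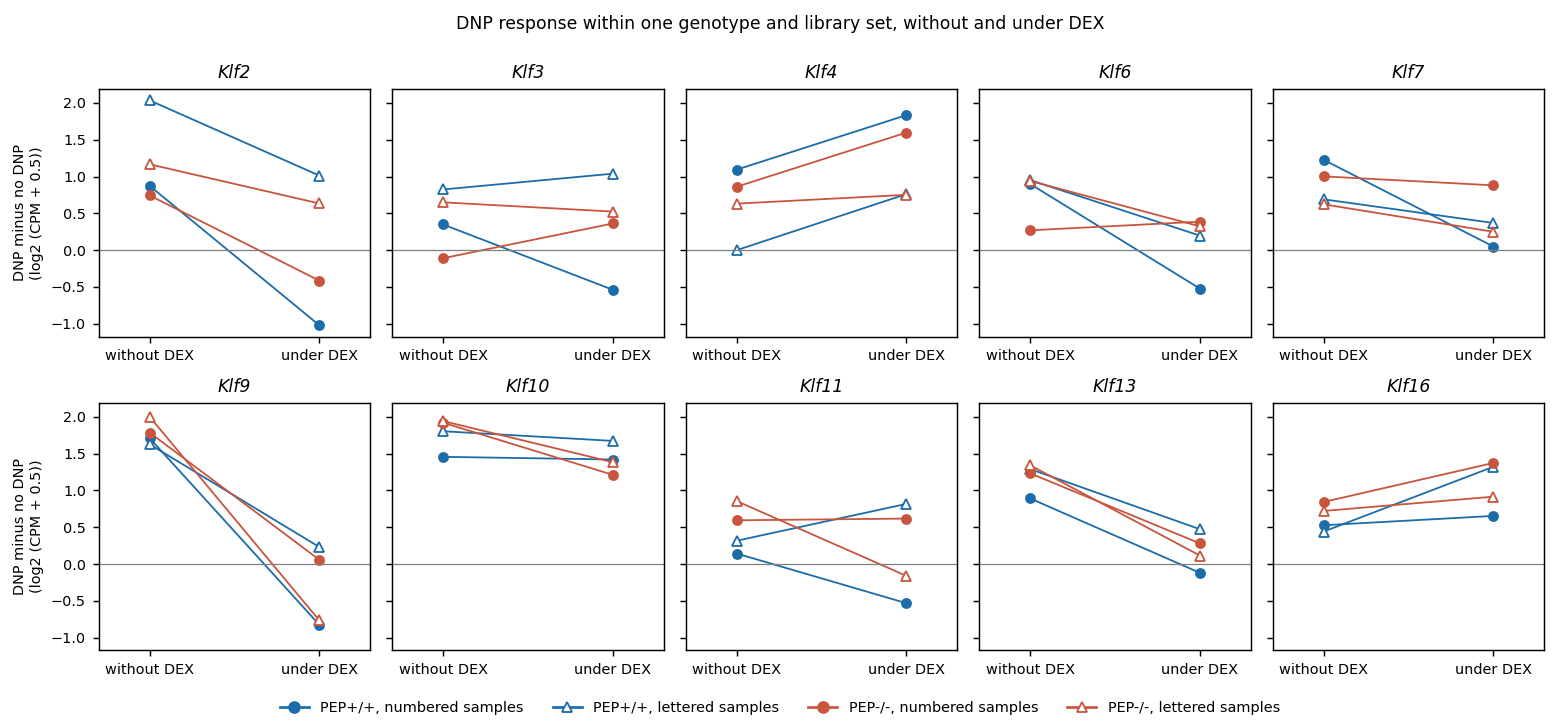
DNP response (IgE DNP minus IgE, and IgE DNP DEX minus IgE DEX, in log2 (CPM + 0.5)) of each member within 1 genotype and 1 library set, without and under DEX; lines join the same genotype and set. For Klf9 all 4 lines fall, by 1.40 to 2.77, and for Klf16 all 4 rise, by 0.13 to 0.88.

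PEP-/- and PEP+/+ BMMCs were compared over all 4 treatments. No member passed without the block, where 1.59% of all tested genes did (1 member, Klf16, at an unadjusted p under 0.05; DESeq2 called Klf16 alone). Klf16 had 19.6 CPM on average in PEP-/- and 24.8 CPM in PEP+/+ BMMCs, a log2 difference of -0.38 ± 0.10 (adjusted p = 0.0929), and was lower in PEP-/- BMMCs in 8 of 8 same-set pairs. With the block 4 of 10 members passed, where 17.4% of all tested genes did. Klf16 (-0.38 ± 0.09, adjusted p = 0.00883) and Klf2 (-0.75 ± 0.23, adjusted p = 0.0394) were lower in PEP-/- BMMCs. Klf7 (0.57 ± 0.14, adjusted p = 0.0125) and Klf10 (0.27 ± 0.08, adjusted p = 0.0306) were higher there.

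Klf7 was higher in PEP-/- BMMCs in 8 of 8 same-set pairs, by 0.21 to 1.44. Klf7 and Klf16 were thus the 2 of 10 members with 1 direction throughout, where 14.0% of all tested genes had 8 differences of the same sign. The Klf2 differences (replicates 1 and 2) were -0.19 and 0.17 with IgE alone and -0.32 and -0.70 with IgE DNP. They were -1.59 and -0.79 with IgE DEX and -0.98 and -1.17 with IgE DNP DEX. No member passed within IgE, IgE DNP, IgE DEX or IgE DNP DEX taken alone, where 0.00752% of all tested genes (1 gene in each) did (1, 0, 1 and 0 members at an unadjusted p under 0.05).

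**Figure D4:**
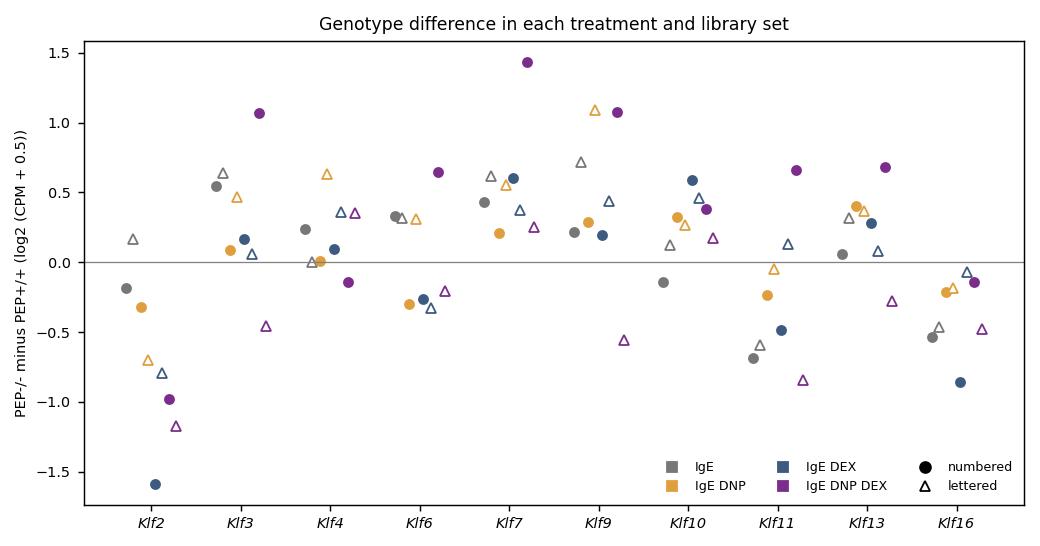
Difference between PEP-/- and PEP+/+ BMMCs (vertical axis, log2 (CPM + 0.5)) for each member in each of the 4 treatments (colours) and in both library sets (filled circles numbered, open triangles lettered). All 8 points lie above 0 for Klf7 (0.21 to 1.44) and below 0 for Klf16.

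The members differed in how far the library set moved them. Averaged over the 8 conditions, the numbered samples were higher by 1.62 (log2) for Klf9, 1.40 for Klf4, 0.91 for Klf7, 0.90 for Klf3, 0.87 for Klf6, 0.85 for Klf11, 0.73 for Klf13 and 0.49 for Klf10, and lower by 1.05 for Klf2 in 7 of 8 conditions. Klf16 differed by 0.05. Over all tested genes 13.3% differed by more than 1. A list of 5 monocyte and macrophage markers was also higher in the numbered samples within each treatment, at 10.5 to 73.6 CPM in sum against 2.87 to 26.2 CPM in the lettered ones, and lower with DEX in both sets. Ccr2 (0.937 to 68.4 CPM) made up most of the highest sum, though not of every sum. Adgre1 had 11 to 112 reads (1.05 to 6.38 CPM), while Csf1r, Fcgr1 and Mrc1 had at most 11, 8 and 1 reads. The part of the sets and of these markers in the member results was not tested.

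The 8 members whose condition means spanned at least 1 on the log2 scale were ranked against the 6048 genes of that kind by Pearson correlation over the 8 condition means, given as a description since the means share libraries. Klf13 was the gene most like Klf9 (r = 0.98), and Slc31a2 (0.99) and Ctsc (0.98) were most like Klf13. Klf16 was most like Mcoln2 (1.00) and Thoc6 (0.99), and Klf10 most like Baiap2, Serpinb8 and the histamine-forming enzyme gene Hdc (each 0.99). Cyb5a, Rab34 and Socs1 came closest to Klf2 (0.95 to 0.96), Tm6sf1 to Klf4 (0.99), Elf4 to Klf7 (0.99) and Nxn to Klf11 (0.98). Klf9 and Klf11 ran most oppositely among the members (r = -0.54).

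Of 7 further Kruppel-like factors, Klf5, Klf8 and Klf15 passed the filter on low counts. Klf5 rose with DNP by 3.11 ± 0.80 (adjusted p = 0.0213) but had at most 30 reads. Klf15, another known glucocorticoid-induced gene, rose with DEX by 2.21 ± 0.58 in sensitized and 3.28 ± 0.91 in activated cells and fell by 3.51 with DNP (SE 0.88), with 0 to 53 reads per sample. Klf15 also fell by 2.44 with DNP under DEX. Klf8 passed no treatment comparison without the block. Klf1, Klf12, Klf14 and Klf17 had at most 11 reads and were not tested. Of 9 Sp genes, which bind the same GC-rich sites, Sp1 to Sp4 were tested and 0 passed in the treatment comparisons (2 fell with DEX in activated cells in the blocked fit).

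Genes of partners and upstream regulators are given next, beside shares of all tested genes of 16.7% with DNP, 9.37% and 10.7% with DEX in sensitized and activated cells, and 12.6% with DNP under DEX. Of 8 CtBP and SIN3 corepressor genes, Sin3a fell by 0.72 with DNP and fell by 0.69 with DNP under DEX, where Sin3b rose by 0.63. Of 4 acetyltransferase coactivators 0 passed without the block. Of 5 ubiquitin ligases known to act on Kruppel-like factor proteins, Fbxw7 and Smurf1, 2 of 5, rose with DNP by 0.86 and 0.84. Of 6 tested genes of the ERK5, MEF2 and FOXO group that control Klf2, Foxo1 rose by 1.03 and Mapk7, which encodes ERK5, fell by 0.69 with DEX in sensitized cells (2 of 6), and Foxo3 fell by 0.47 with DNP. In activated cells Mapk7 fell by 0.75 and Foxo3 rose by 0.62 with DEX (2 of 6). The median log2 fold change with DNP was 0.08 for the corepressors, -0.21 for the coactivators, -0.16 for the ligases and -0.05 for this group.

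A list of 10 reported targets of the family, chosen with earlier results of these data known, held 9 tested genes. With DNP 5 rose and 1 fell, where 16.7% of all tested genes changed, and the median log2 fold change of the 9 was 0.86 against -0.00065 over all tested genes. Cdkn1a, the cell cycle inhibitor p21, rose by 2.31, the galectin gene Lgals3 by 1.69, Tgfb1 by 1.15 and Ccl5, a target of Klf13 in T cells, by 3.45. Smad7 (0.86) and S1pr1 were the other members of the list that passed. S1pr1, a Klf2 target in lymphocytes, fell by 1.27 with DNP and fell by 1.76 with DEX in sensitized cells, the comparison in which Klf2 rose. Both S1pr1 (2 to 48 reads per sample) and Ccl5 (1 to 76) had few reads. Tgfb1 fell by 0.69 with DEX in sensitized cells. With DNP under DEX, Cdkn1a (1.08), Tgfb1 (0.97), Smad7 (1.16) and Lgals3 (1.26) rose, 4 of 9, where 12.6% of all tested genes changed. With DEX in activated cells Cdkn1a fell by 0.77 and Tgfb1 fell by 0.86.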

How the data were processed

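RNA was sequenced from 16 BMMC samples with a stranded, paired-end mRNA library kit. Per the labels and the study's methods, the authors used TopHat2 for alignment to GRCm38 and HTSeq for counting per gene, and the deposited files hold these raw counts. Unassigned reads, 29.1% to 49.6% of each file's total, were left out. The strand setting of the counting is not given in the sources used here. GENCODE M21 named 37607 of 39179 identifiers.

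Counts were tested with edgeR 4.0.16 (R 4.3.3; TMM scaling, filterByExpr with a minimum count of 10, quasi-likelihood F test, Benjamini-Hochberg adjustment over 13305 genes, threshold 0.05), with a mean per condition, 16 samples and 8 residual degrees of freedom. The SE is the size of the log2 fold change divided by the square root of F. Comparisons were averaged over genotypes unless stated. Differences within a genotype and set used log2 (CPM + 0.5). Replicate 1 was the numbered and replicate 2 the lettered sample of each condition; the correlation of the sets' deviations from condition means ran from 0.45 to 0.80, so the set was added as a replicate block in a second fit. Alternatives were DESeq2 1.42.0, its size factors in edgeR, no filter, a stricter filter (10 counts or more in each of the samples), a fit of the compared conditions alone, and each sample left out. All 10 members are described in every comparison, and other lists are given by their counts and up to 4 genes per list that passed; where a list had more, the remaining list members were named after their values were seen. The members and lists were chosen with earlier results of these data known. No columns of the authors' own comparisons were present. Promoter windows came from RefSeq (GRCm38.p6). Items withheld from this text are not reported here.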

Additional observations from a re-analysis of the deposited data

Results flagged for a closer look

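The DNP response of Klf9 and Klf13 differed between cells without and with DEX in the fit with the replicate block. For Klf9 the response under DEX minus that without it was -2.10 ± 0.30 (log2, SE; edgeR adjusted p = 0.00149), and for Klf13 it was -0.98 ± 0.18 (adjusted p = 0.0120), each lower in 4 of 4 pairs of genotype and set. Without the block neither passed (adjusted p = 1.00 for both).

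Klf3, the CtBP-dependent repressor, had opposite signs in the genotypes for DEX in sensitized cells. The differences within a set were 0.27 and 0.34 in PEP+/+ and -0.11 and -0.24 in PEP-/- BMMCs, and the difference in response was -0.43 ± 0.90, smaller than its error (edgeR interaction test, adjusted p = 1.00).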

How the results depend on the processing

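With the replicate block, 8 members passed for DNP without DEX, 8 for DEX in activated cells, 2 for the DNP by DEX interaction and 4 for genotype, against 3, 1, 0 and 0 without it. The block turned 1 value, Klf2 with DNP under DEX, to -0.0011, and changed no other direction. With no filter on low counts these numbers were 7, 6, 1 (Klf9) and 1 (Klf2), and DESeq2 gave 6 for DNP and 1 for genotype (Klf16); the cause was not tested. Leaving out each sample in turn gave 2 to 5 members for DEX in sensitized cells, against 5. Of 60 member values, 60 kept direction and call with DESeq2's size factors, 54 of 59 with DESeq2, 48 of 48 with the stricter filter (which left out Klf4 and Klf11) and 47 of 48 when the compared conditions were fitted alone, a setting that gives no value for the genotype average.

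Leaving out 1 sample turned the direction of 13 member values, none of which had passed. With DEX in sensitized cells Klf3 ran from -0.34 to 0.48. With DEX in activated cells Klf3 ran from -0.32 to 0.26 and Klf6 from -0.48 to 0.15. With DNP under DEX the ranges were -0.26 to 0.55 for Klf2, -0.050 to 0.69 for Klf3, -0.26 to 0.39 for Klf6, -1.06 to 0.23 for Klf9, -0.31 to 0.74 for Klf11 and -0.13 to 0.45 for Klf13. For the interaction they were -0.47 to 0.35 for Klf3, -2.86 to 0.85 for Klf4 and -0.84 to 0.20 for Klf11, and for genotype -0.10 to 0.23 for Klf6.

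Depth limits Klf4 most, with 0 to 25 reads per sample, and Klf4 passed the filter on low counts only through the IgE DNP DEX samples.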
